A study of Mus musculus with 6 samples.

Results

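The 10 genes described here serve the assembly of very-low-density lipoprotein (VLDL) or encode apolipoproteins: Mttp, Tm6sf2, Apob, Apoa1, Apoa2, Apoa4, Apoa5, Apoc3, Apoe and Apom. They were chosen by name from a list, and each was read by every probe set annotated to that symbol alone, 17 of the 34945 probe sets with 1 symbol and 10 of the 18193 genes with such a probe set. All 10 genes and all 17 probe sets passed the filter on dim signals (a mean log2 signal at or above 5.50, the 40th percentile), so all 10 stood among the 12598 genes tested. The livers came from 6 male mice, 3 ChLO and 3 WT, and each was read on 1 Affymetrix array. ChLO mice carry floxed alleles of Chrebp (now Mlxipl) and Cre recombinase driven by the albumin promoter, which acts in hepatocytes, so the deletion is aimed at hepatocytes and not at other liver cells. The labels describe the controls as wild type, raised in the same grade of housing, and do not say whether they carried Cre or floxed alleles or were littermates. Mice of both groups were 12 weeks old and ate a diet with 60% sucrose for 1 week, so the comparison asks what loss of hepatocyte ChREBP changes under a sucrose load. ChREBP, the product of Mlxipl, is a transcription factor that carbohydrate activates. Array medians ran from 6.37 to 6.60 log2 units. The probe set of Mlxipl read 10.34, 11.22 and 11.48 in ChLO livers, against 12.61, 12.56 and 12.59 in WT livers, a difference, ChLO minus WT in log2 signal, of -1.57 (SE 0.28, limma adjusted p = 0.185 over all genes tested, with a threshold of 0.05). The array of ChLO 3 stood apart from the other ChLO livers: without it 302 genes passed that threshold, against 0 with all 6 arrays, so values that rest on it are given without it too.

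Hepatocytes export triglyceride as VLDL. The microsomal triglyceride transfer protein, which Mttp encodes, loads lipid onto apolipoprotein B in the endoplasmic reticulum, and TM6SF2 acts on the lipid loading of the particle there and in the early secretory route. The exchangeable apolipoproteins bind the surface of lipoproteins and steer their fate in plasma: some activate lipoprotein lipase, some restrain it, some activate cholesterol esterification, and some are ligands of hepatic receptors. Liver makes most circulating apolipoproteins, and intestine is a second source of several of them.

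Of the 10 genes, RefSeq held promoter windows of 250 bases before to 50 after the gene start on GRCm38.p6 for 8, in 12 windows. Those of Mttp, Apom and Apoa5 are shown because these 3 genes, with Tm6sf2, had the smallest p-values below. Capitals mark matches on either strand to any of 5 motifs, and a window with no capitals holds none of them. The E-box CACGTG is one unit of the paired element that ChREBP binds. The others are the core promoter box spelled TATAAA, the nuclear receptor motif AGGTCA, the HNF4 core CAAAGTC and the HNF1 motif GTTAAT.
Mttp, minus strand, chr3:138143369-138143668: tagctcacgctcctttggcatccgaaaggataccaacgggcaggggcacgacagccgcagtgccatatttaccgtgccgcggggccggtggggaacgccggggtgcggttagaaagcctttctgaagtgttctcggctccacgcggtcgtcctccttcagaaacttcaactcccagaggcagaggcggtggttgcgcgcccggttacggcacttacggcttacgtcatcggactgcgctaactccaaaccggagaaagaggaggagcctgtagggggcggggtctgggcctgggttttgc
Apom, minus strand, chr17:35131752-35132051: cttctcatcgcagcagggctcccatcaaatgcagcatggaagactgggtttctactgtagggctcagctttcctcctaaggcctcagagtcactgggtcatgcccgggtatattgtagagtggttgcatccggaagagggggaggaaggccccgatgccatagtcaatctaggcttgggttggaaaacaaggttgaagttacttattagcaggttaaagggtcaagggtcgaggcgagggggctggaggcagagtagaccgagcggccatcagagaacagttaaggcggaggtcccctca
Apoa5, plus strand, chr9:46268358-46268657: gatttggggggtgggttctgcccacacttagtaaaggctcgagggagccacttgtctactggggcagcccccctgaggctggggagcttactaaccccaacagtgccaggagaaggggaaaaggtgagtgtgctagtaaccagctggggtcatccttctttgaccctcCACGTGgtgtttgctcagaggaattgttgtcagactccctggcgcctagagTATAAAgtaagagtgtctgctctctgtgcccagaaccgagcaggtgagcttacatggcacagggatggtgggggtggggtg
Of the 12 windows, 2 held CACGTG, which stood in 7.15% of the 32851 mouse promoter windows of this length. Both are of Apoa5 and overlap, so they hold the same CACGTG, at position -82 from the start shown. The TATAAA of Apoa5 began at position -31 from that start and also lies in both windows. In all, 5 of the 12 windows (of Apoa2, Apoa5, Apob and Apoe) had TATAAA, as did 13.6% of all windows. Counted by gene, CACGTG was found in 1 of the 8 genes and TATAAA in 4. AGGTCA was found in 1 of the 12 windows, of Apoa2 (16.3% of all windows), GTTAAT in 1, of Apoe (7.1%), and CAAAGTC in none (4.44%). A pair of CACGTG separated by 5 bases, a spelling of the full carbohydrate response element, was in 0 of the 32851 windows.

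All 10 genes had a lower mean signal in ChLO livers, with log2 differences from -1.19 to -0.30 and a median of -0.51, where the median over all 12598 genes was 0.06 and 43.5% of genes were lower. Mttp was 2.13-fold, Tm6sf2 2.22-fold, Apom 1.69-fold and Apoa5 1.52-fold lower, and these 4 had an unadjusted limma p under 0.05, a mark that 3.5% of all genes tested passed with a lower signal. For 7 of the 10, every ChLO array lay below every WT array, which held for 6.19% of all genes. The 3 whose groups overlapped were Tm6sf2, Apoa2 and Apoa4, and under other scalings, given below, more did. After Benjamini-Hochberg adjustment over all genes, limma called 0 of the 10 and 0% of genes (1129 of 12598 had an unadjusted p under 0.05, 688 or 5.46% with a higher signal), and adjusted p-values of the 10 ran from 0.186 for Mttp to 0.644 for Apoa1. Without ChLO 3, where 2.4% of genes passed, Mttp (adjusted p = 0.0405) and Apom (adjusted p = 0.0347) passed and 8 of the 10 had an unadjusted p under 0.05, as 8.04% of all genes did with a lower signal. With array weights, which count deviant arrays for less and whose estimation did not converge, Mttp (adjusted p = 0.022), Tm6sf2 (adjusted p = 0.0451) and Apom (adjusted p = 0.025) passed, as did 4.51% of all genes, and 9 of the 10 had an unadjusted p under 0.05, as 9.96% of all genes did with a lower signal. In whole liver, fewer hepatocytes and less of a transcript per hepatocyte cannot be told apart, and this holds for every gene below.

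**Figure D1:**
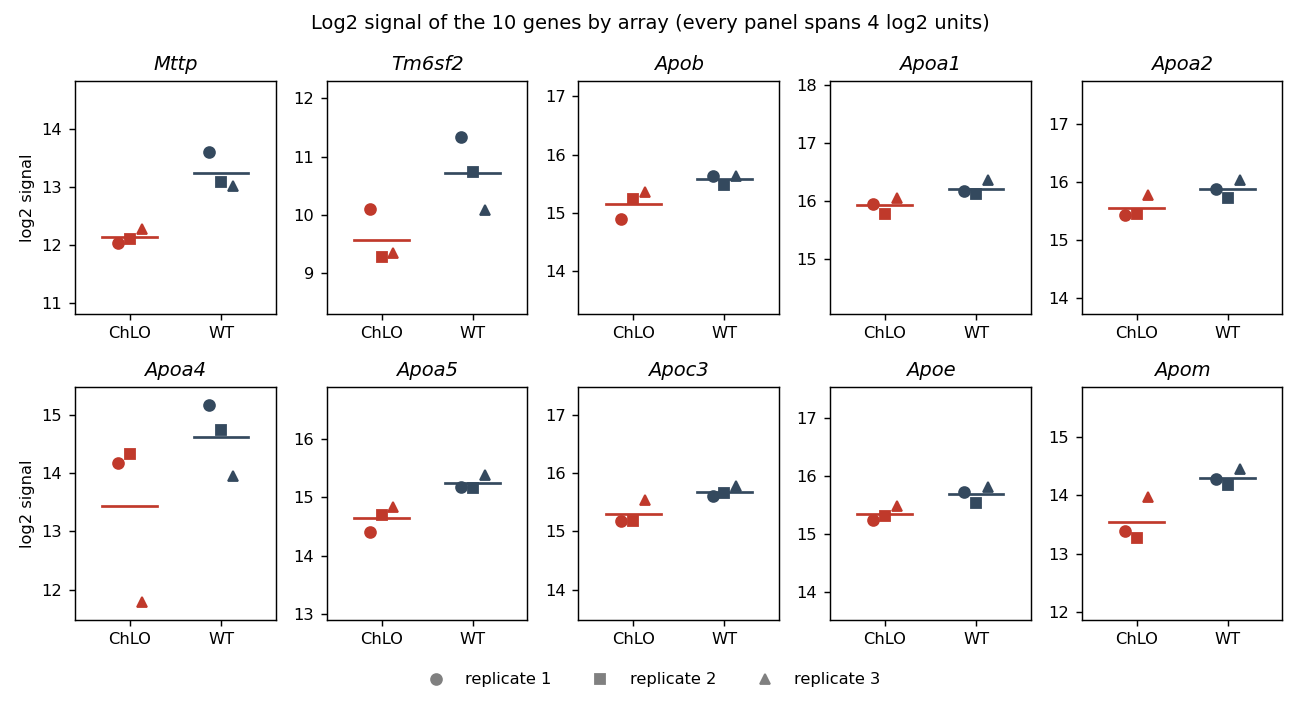
Log2 signal (vertical axis) of the 10 genes in ChLO livers (red, left) and WT livers (dark, right), 1 panel a gene, each spanning 4 log2 units. Each symbol is 1 array, its shape is the replicate number and the bar is the group mean (n = 3 each). Mttp separates the groups widely, and Apoa4 has a single low ChLO array, at 11.78.

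Among the genes that build the particle, Mttp differed most clearly. Its brighter probe set read 12.04, 12.11 and 12.28 in ChLO livers, against 13.61, 13.09 and 13.02 in WT livers. The 3 ChLO arrays lay close to one another and all WT arrays lay well above them. The difference was -1.09 (SE 0.20, 95% confidence interval -1.56 to -0.63, limma unadjusted p = 6.36e-04, adjusted p = 0.186). The second Mttp probe set read 11.32, 11.22 and 11.56 in ChLO livers, against 12.76, 12.11 and 12.24 in WT livers. It too kept the groups apart, with a difference of -1.0 (SE 0.21).

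Tm6sf2, which encodes the membrane protein of lipid loading, had 1 probe set. It read 10.10, 9.27 and 9.34 in ChLO livers, against 11.33, 10.73 and 10.09 in WT livers. The groups met at 1 pair of arrays, ChLO 1 and WT 3, which differed by about the last digit shown. The difference was -1.15 (SE 0.35, 95% interval -1.96 to -0.34, limma unadjusted p = 0.0113, adjusted p = 0.455). WT livers spread widely for this gene (SD 0.62), and without WT 1 the difference was -0.85.

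Apob, whose product is the structural protein of VLDL, read 14.89, 15.23 and 15.35 in ChLO livers, against 15.64, 15.47 and 15.63 in WT livers. The groups did not overlap, but the nearest arrays, ChLO 3 and WT 2, lay close together. The difference was -0.43 (SE 0.19, 95% interval -0.87 to 0.02, limma adjusted p = 0.571). A second, dimmer Apob probe set read 11.50, 11.52 and 10.71 in ChLO livers, against 12.32, 11.36 and 11.84 in WT livers. There the groups overlapped, and the difference was -0.60 (SE 0.31), or -0.33 without ChLO 3 and -0.36 without WT 1.

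**Figure D2:**
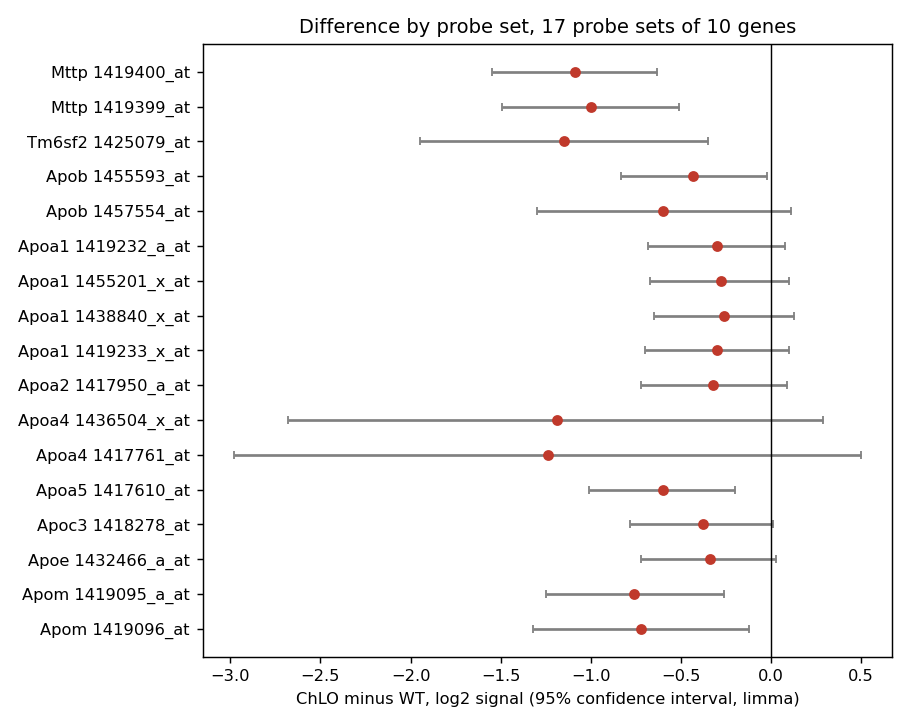
Difference in log2 signal, ChLO minus WT (horizontal axis), for the 17 probe sets of the 10 genes, from limma fitted to all 27022 probe sets past the filter. Points are differences, bars are 95% confidence intervals, and all 17 points lie left of 0. The intervals of both Mttp and both Apom probe sets, Tm6sf2, Apoa5 and the brighter Apob probe set do not reach 0.

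By probe set the picture was like that by gene. All 17 probe sets were lower in ChLO livers, 7 had an unadjusted limma p under 0.05 (3.61% of all 27022 probe sets did so with a lower signal) and in 9 the groups did not overlap (6.54% of all). Adjusted over all probe sets, limma called 0 of the 17 (smallest adjusted p 0.247) and 8 of all (0.0296%). In the 5 genes with several probe sets, these did not differ in sign. With quantile normalization 14 of the 17 remained lower, and 3 of the 4 Apoa1 probe sets stood at 0.01 to 0.04.

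Of the apolipoproteins, 4 are encoded side by side on chromosome 9, where RefSeq lists them as neighbours in the order Apoa1, Apoc3, Apoa4 and Apoa5. Apoa5, whose product promotes lipolysis of plasma triglyceride, read 14.40, 14.69 and 14.83 in ChLO livers, against 15.18, 15.17 and 15.39 in WT livers. All ChLO arrays were below all WT arrays. The difference was -0.60 (SE 0.19, 95% interval -1.04 to -0.17, limma unadjusted p = 0.0127, adjusted p = 0.455).

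Apoa4, an apolipoprotein of triglyceride-rich particles and of high-density lipoprotein (HDL), read 14.18, 14.33 and 11.78 in ChLO livers, against 15.18, 14.74 and 13.95 in WT livers. ChLO 3 stood far below the other 5 arrays, WT 3 was the lowest of its own group, and the other 2 ChLO arrays lay between WT 3 and WT 2. The difference was -1.19 (SE 0.66, 95% interval -2.72 to 0.33, limma adjusted p = 0.622), and it was -0.37 without ChLO 3. The other Apoa4 probe set gave the same order, at 14.23, 14.30 and 11.34 in ChLO livers, against 15.09, 14.79 and 13.70 in WT livers, with a difference of -1.24 (SE 0.76), or -0.26 without ChLO 3. Apoa4 was thus the gene of the 10 whose value rested most on 1 array.

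Apoc3, an inhibitor of lipoprotein lipase and of particle uptake, read 15.18, 15.18 and 15.54 in ChLO livers, against 15.61, 15.66 and 15.78 in WT livers. The groups did not overlap, and ChLO 3 came close to WT 1. The difference was -0.38 (SE 0.19, 95% interval -0.81 to 0.05, limma adjusted p = 0.59). Apoa1, the main protein of HDL, read 15.94, 15.77 and 16.05 in ChLO livers, against 16.17, 16.11 and 16.35 in WT livers. The groups did not overlap on this probe set, with a difference of -0.30 (SE 0.19, 95% interval -0.73 to 0.13), but they overlapped on the other 3, whose differences were -0.30, -0.28 and -0.26. Among the 4 neighbours, the differences thus ran from -1.19 for Apoa4 to -0.30 for Apoa1.

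Apoa2, the second protein of HDL, read 15.44, 15.45 and 15.78 in ChLO livers, against 15.88, 15.72 and 16.03 in WT livers. ChLO 3 lay above WT 2, so the groups overlapped, and the difference was -0.32 (SE 0.19, 95% interval -0.76 to 0.13). Apoe, the ligand through which remnant particles are taken up, read 15.25, 15.31 and 15.49 in ChLO livers, against 15.72, 15.54 and 15.81 in WT livers. The groups were apart by a narrow gap, and the difference was -0.34 (SE 0.18, 95% interval -0.76 to 0.07, limma adjusted p = 0.604).

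Apom, the carrier of sphingosine 1-phosphate on HDL, was the apolipoprotein with the smallest p-value. It read 13.38, 13.27 and 13.97 in ChLO livers, against 14.28, 14.17 and 14.45 in WT livers. The groups did not overlap, with ChLO 3 nearest to WT. The difference was -0.76 (SE 0.22, 95% interval -1.27 to -0.25, limma unadjusted p = 0.00923, adjusted p = 0.451). The second Apom probe set differed by -0.72 (SE 0.26) and read 12.39, 12.83 and 13.41 in ChLO livers, against 13.59, 13.45 and 13.75 in WT livers. Without ChLO 3, the Apom difference was -0.97.

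The size of these differences has to be read against the behaviour of other bright probe sets, in a comparison added after the values were seen. Apob, Apoa1, Apoa2, Apoc3 and Apoe had a mean log2 signal of 15 or more over the 6 arrays, where the probe set of Apoa1 had the highest mean of all that are not controls. Of the 56 other genes at this level, 54 (96.4%) were lower in ChLO livers, with a median of -0.28 and quartiles of -0.36 and -0.21, and in 46.4% all ChLO arrays lay below all WT arrays. The differences of Apoa1 (-0.30), Apoa2 (-0.32) and Apoe (-0.34) lay between those quartiles, and those of Apoc3 (-0.38) and Apob (-0.43) just beyond the lower one. Of the 212 other genes at 14 or more, 83% were lower, with a median of -0.25 and quartiles of -0.40 and -0.09, and Apoa5 and Apoa4 lay beyond the lower quartile.

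Quantile normalization, which gives all arrays the same distribution, brought Apoa1 and Apoa2 to -0.02, Apoe to -0.04, Apoc3 to -0.09 and Apob to -0.16. Under it Mttp was at -1.03, Tm6sf2 at -1.21, Apoa4 at -1.04, Apom at -0.65 and Apoa5 at -0.42. Scaling to the hybridization spike-in controls moved the median of all genes to 0.31, against 0.06 as deposited. With it Mttp was at -0.84, Tm6sf2 at -0.90, Apom at -0.51 and Apoa5 at -0.35, while Apoa1 was at -0.05 and Apoe at -0.09. All 10 genes stayed lower in ChLO livers under both, with 4 unadjusted p-values under 0.05 after quantile normalization (3.89% of all genes with a lower signal) and 3 after spike-in scaling (Mttp, Tm6sf2 and Apom, against 1.42% of all genes).

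**Figure D3:**
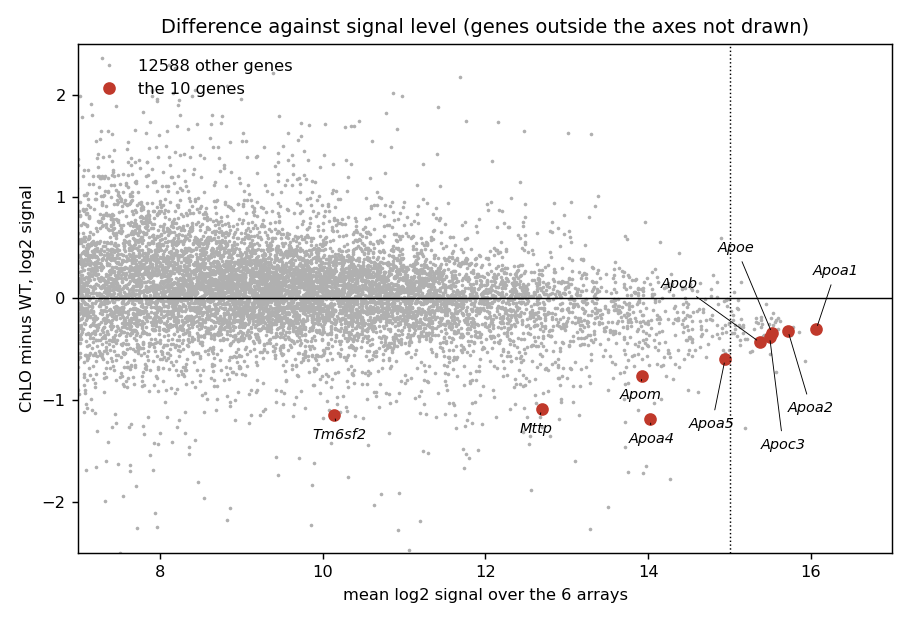
Difference in log2 signal, ChLO minus WT (vertical axis), against the mean log2 signal over the 6 arrays (horizontal axis). Grey points are other genes tested, red points are the 10 genes, the dotted line marks a mean of 15 and genes outside the axes are not drawn. Right of that line most grey points are below 0, at a median of -0.28, and the 5 red points there run from -0.43 to -0.30. Mttp, Tm6sf2 and Apoa4 lie near -1.1 to -1.2.

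**Figure D4:**
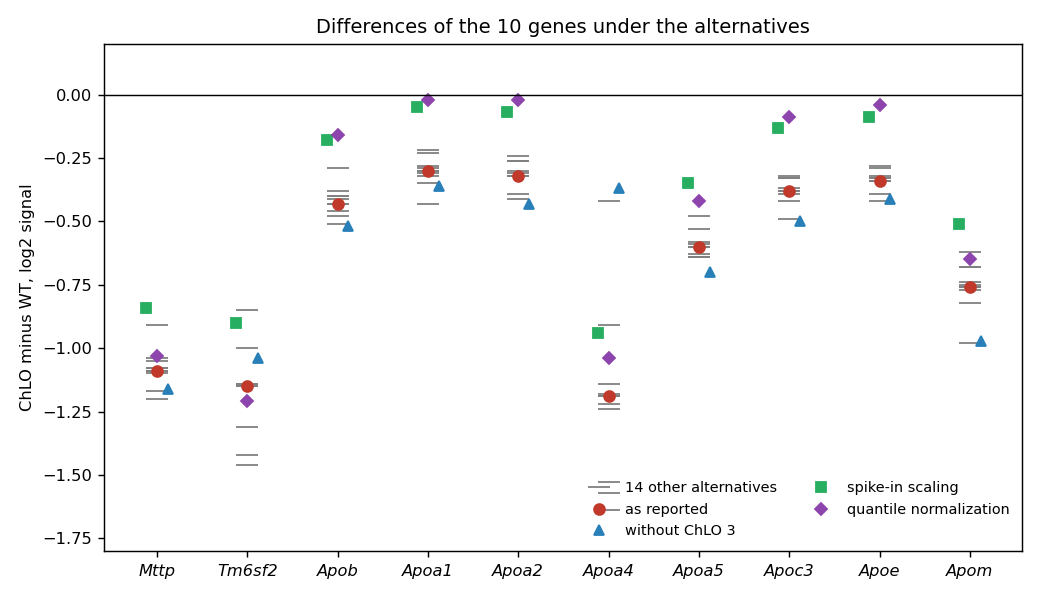
Difference in log2 signal, ChLO minus WT (vertical axis), of the 10 genes as reported (red circles), without ChLO 3 (blue triangles), with spike-in scaling (green squares), with quantile normalization (purple diamonds) and under the 14 other alternatives (grey dashes). All points are below 0. Quantile normalization and spike-in scaling bring Apoa1, Apoa2, Apoc3 and Apoe near 0, and leaving out ChLO 3 brings Apoa4 to -0.37.

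The arrays of a group did not share one level. Taken as the difference from each gene's WT mean, the median over the 10 genes was -0.56, -0.47 and -0.28 in ChLO 1, 2 and 3, against 0.02, -0.11 and 0.11 in WT 1, 2 and 3. The medians over the 8 apolipoproteins were -0.47, -0.44 and -0.22 in ChLO livers, against -0.01, -0.11 and 0.13 in WT livers. With the brightest probe set of each gene, ChLO 3 was the ChLO array nearest to WT for 7 of the 8 apolipoproteins, with Apoa4 the exception. On the dimmer Apob probe set ChLO 3, at 10.71, was instead the lowest array. Tm6sf2 was lowest in ChLO 2 and ChLO 3, and Mttp was nearly level over the 3 ChLO arrays. The 3′ minus 5′ log2 signal of Actb, a measure of RNA quality and labelling, was 0.84, 1.03 and 1.46 in ChLO 1, 2 and 3, against 1.13, 1.38 and 1.28 in WT 1, 2 and 3. It was below all WT arrays in ChLO 1 and 2 and above them in ChLO 3. The same measure of Gapdh was -0.25, -0.20 and -0.14 in ChLO 1, 2 and 3. In WT 1, 2 and 3 it was -0.31, -0.14 and -0.13, so for Gapdh the groups overlapped. The part of either measure in the values of the 10 genes was not tested.

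Hepatocyte markers were lower in the same arrays. All 11 that were measured had a lower mean in ChLO livers, and their summed linear signal ran from 335657 to 410316 in ChLO livers, against 407625 to 490668 in WT livers. Their median difference from the WT mean was -0.31, -0.38 and -0.16 in ChLO livers 1, 2 and 3, against -0.09, -0.09 and 0.14 in WT livers 1, 2 and 3. Albumin (Alb) was at 15.50 ± 0.18 in ChLO livers and 15.69 ± 0.17 in WT livers (SD, n = 3 each). Transthyretin (Ttr) was at 15.64 ± 0.18 in ChLO livers and 15.92 ± 0.12 in WT livers (SD, n = 3 each). None of the 11 lay below the filter, and Alb and Ttr stood near the top of the signal range on all 6 arrays. The ranges of the sums overlapped. The median difference of the 11 was -0.28, as it was for the 56 other genes at a log2 signal of 15 or more, which include some of these markers. The part of signal level in the marker values was not tested.

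Markers of stellate cells and macrophages were higher in ChLO 1 and ChLO 2, with median differences from the WT mean of 1.75 and 1.88 for stellate cells and 0.64 and 0.59 for macrophages, against 0.01 and -0.14 in ChLO 3. All 11 markers of stellate cells and fibroblasts had a higher mean in ChLO livers, with sums of 11755 to 32040 in ChLO livers and 9399 to 14670 in WT livers. Macrophage markers, of which 10 of 14 were higher (Itgam lay below the filter), summed to 14445 to 25757 in ChLO livers and 15663 to 16871 in WT livers. Of the 13 macrophage markers tested, 0 higher and 1 lower had an unadjusted limma p under 0.05. Of the 11 stellate markers, 4 higher and 0 lower did. Over all genes, 5.46% did so with a higher signal and 3.5% with a lower signal. Bile duct markers, 6 of 7 higher with Cftr below the filter, summed to 407 to 1626 in ChLO livers and 294 to 456 in WT livers. Endothelial markers, 6 of 9 higher, summed to 10690 to 14302 in ChLO livers and 9521 to 11961 in WT livers. Intestinal markers, which bear on genes shared with enterocytes such as Apoa4, had 3 of 8 higher, with Muc2, Lct, Vil1 and Cdx1 below the filter. They summed to 3153, 10213 and 4843 in ChLO 1, 2 and 3, against 11628, 8710 and 9270 in WT 1, 2 and 3. Their median difference from the WT mean was -1.02, 0.21 and 0.23 in ChLO 1, 2 and 3, against 0.46, -0.29 and 0.18 in WT 1, 2 and 3. Adipocyte markers, 3 of 4 higher with Adipoq and Lep below the filter, summed to 1801 to 2902 in ChLO livers and 866 to 1341 in WT livers. Erythroid markers, 2 of 3 higher with Slc4a1 and Hba-a1 below the filter, summed to 474 to 1451 in ChLO livers and 1098 to 2299 in WT livers. The part of these shifts in the values of the 10 genes was not tested.

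Differences between genes of unlike role were compared within arrays, in 3 pairs. The log2 signal of Mttp minus that of Apob averaged -3.01 ± 0.14 in ChLO livers and -2.34 ± 0.29 in WT livers (SD, n = 3 each), so Mttp was lower by a further 0.67 on the log2 scale. All ChLO arrays were below all WT arrays here, with the brighter probe set of each gene. With the dimmer Apob probe set, which differed by -0.60 (SE 0.31), the groups overlapped in this measure. For the brighter ones the exact two-sided permutation test gave p = 0.1, the smallest that 3 against 3 arrays allow (0.3 adjusted over the 3 pairs). The same difference for Mttp minus Tm6sf2 was 0.05 (exact permutation p = 0.9, adjusted 0.9). For Apoa4 minus Apoa1 it was -0.90 (exact permutation p = 0.5, adjusted 0.75), and -0.01 without ChLO 3.

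Genes with a pattern like that of Mttp were sought among the 12588 other genes tested, by the root mean square of the difference in log2 values over the 6 arrays, each gene taken from its own WT mean. The nearest were Slc66a2, at 0.131 log2 units, Adipor2, an adiponectin receptor, at 0.133, and B330016D10Rik, at 0.167. Adipor2 read 11.79, 11.95 and 12.05 in ChLO livers, against 13.23, 13.12 and 12.93 in WT livers. For Tm6sf2 the nearest genes were Diras1 (0.264), Slc17a1 (0.28) and Shld2 (0.29), and for Apoa4 they were Rnf208 (0.323), Scrt1 (0.342) and Rrm2 (0.365), less close than those of Mttp. Some of these genes were dim. Rnf208 and Scrt1 read 3.62 and 3.98 in ChLO 3, below the filter level of 5.50. B330016D10Rik read 5.61 in ChLO 1 and Diras1 read 5.80 in ChLO 2, near that level.

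The rest of the pathway was followed in 6 lists that hold 78 genes tested. Of these, 55 were lower in ChLO livers, and 10 had an unadjusted limma p under 0.05, 9 lower and 1 higher. Of all genes 8.96% did in either direction, 3.5% lower and 5.46% higher. Limma called 0 of the 78 after adjustment over all genes. Without ChLO 3 there were 29 with an unadjusted p under 0.05, as were 20.4% of all genes, and 3 passed the adjusted threshold, as did 2.4% of all genes. With spike-in scaling 37 of the 78 were lower, where 21.2% of all genes were. The 10 with an unadjusted limma p under 0.05 were then 4 lower and 6 higher. Over all 12598 genes there were 179 lower and 1834 higher.

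In VLDL assembly and secretion, 16 of 24 genes were lower with a median of -0.02, and 2 lower and 0 higher genes had an unadjusted p under 0.05. Aadac, a lipase of the endoplasmic reticulum, read 13.40, 13.96 and 14.16 in ChLO livers, against 14.59, 14.58 and 14.62 in WT livers (difference -0.76, SE 0.22, limma adjusted p = 0.451). Cideb, which acts in VLDL lipidation, read 12.08, 12.15 and 12.46 in ChLO livers, against 12.92, 12.66 and 12.61 in WT livers (difference -0.50, SE 0.18). P4hb, protein disulfide isomerase and the partner subunit of the transfer protein, read 14.41, 14.23 and 14.13 in ChLO livers, against 14.79, 14.47 and 14.74 in WT livers (difference -0.41, SE 0.18). In all 3, picked for the smallest p-values of the list, the groups did not overlap, as in 6.19% of all genes with a lower signal. For P4hb they overlapped with quantile normalization (-0.28), equal array medians (-0.40) and spike-in scaling (-0.16). The partner P4hb thus differed by less than Mttp itself, in a comparison that was not tested.

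Of the other apolipoproteins, 6 of 8 were lower with a median of -0.33, and 1 lower and 0 higher had an unadjusted p under 0.05. Apoc2, the cofactor of lipoprotein lipase, read 13.57, 14.35 and 14.04 in ChLO livers, against 14.68, 14.34 and 14.57 in WT livers, with overlap. Its difference was -0.54 (SE 0.23, limma adjusted p = 0.549), -0.33 without ChLO 1 and -0.27 with array weights. Apon, an apolipoprotein gene of the mouse, differed by -0.73 (SE 0.32), and by -0.35 without ChLO 1, which read 12.53. Apof, which regulates lipid transfer between lipoproteins, differed by -0.43 (SE 0.20), and by -0.27 without ChLO 1. In lipoprotein remodelling and lipid transfer, 8 of 11 were lower with a median of -0.39, and 2 lower and 1 higher had an unadjusted p under 0.05.

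Lpl, lipoprotein lipase, was the 1 gene of the 78 higher at that mark on the values as deposited. It read 12.86, 11.66 and 10.23 in ChLO livers, against 9.96, 9.61 and 10.73 in WT livers. ChLO 3 lay within the WT range, as it did for the median of the stellate markers, and the difference was 1.49 (SE 0.61, limma adjusted p = 0.539). Without ChLO 3 it was 2.16 (adjusted p = 0.0446), and without ChLO 1 it was 0.85 (adjusted p = 0.877). The unadjusted p was above 0.05 without ChLO 1, ChLO 2, WT 1 or WT 2. Lcat, which esterifies cholesterol on HDL, differed by -0.64 (SE 0.27), with no overlap, and by -0.35 without ChLO 1. Lipg, endothelial lipase, differed by -1.46 (SE 0.62) and read 6.15, 8.81 and 7.95 in ChLO livers, against 9.54, 9.09 and 8.63 in WT livers. Its difference was -0.71 without ChLO 1 and -0.54 with array weights.

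Among transcription factors of apolipoprotein genes, 18 of 22 were lower with a median of -0.34, and 4 lower and 0 higher had an unadjusted p under 0.05. Hes6, a factor of the hairy and enhancer of split family, differed by -1.14 (SE 0.23, limma adjusted p = 0.228). Nr0b2, the corepressor SHP, differed by -0.91 (SE 0.22), and Srebf1, the lipogenic factor SREBP-1, by -1.19 (SE 0.32). In all 3, picked for the smallest p-values of the list, every ChLO array lay below every WT array, as in 6.19% of all genes. Hnf4a, named after its values were seen because many apolipoprotein promoters bind it, read 12.93, 13.10 and 13.27 in ChLO livers, against 13.36, 13.31 and 13.71 in WT livers (difference -0.36, SE 0.18, limma adjusted p = 0.598).

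Receptors and clearance genes had 5 of 8 lower with a median of -0.05, and 0 with an unadjusted p under 0.05. Lrpap1, the chaperone of LDL receptor family members, differed by -0.36 (SE 0.16), Lsr, a receptor of triglyceride-rich particles, by -0.58 (SE 0.27) and Sdc1, a heparan sulfate proteoglycan that binds remnants, by 0.33 (SE 0.23). The Sdc1 difference was 0.20 without ChLO 3, 0.13 without WT 1 and 0.50 without WT 2. Of the 5 genes of Apob mRNA editing, 2 were lower with a median of 0.07 and 0 had an unadjusted p under 0.05. A1cf, a cofactor of the editing enzyme, differed by -0.68 (SE 0.36), -0.37 without ChLO 1 and -0.39 without WT 1. Apobec1, the enzyme, differed by 0.17 (SE 0.27), -0.05 without ChLO 1, 0.43 without ChLO 3 and 0.10 without WT 2. Khsrp, an RNA-binding protein, differed by -0.52 (SE 0.39), -0.11 without ChLO 2, -0.95 without ChLO 3, -1.15 with array weights, and 0.22 on the probe set chosen when those that can match several transcripts were left out.

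**Figure D5:**
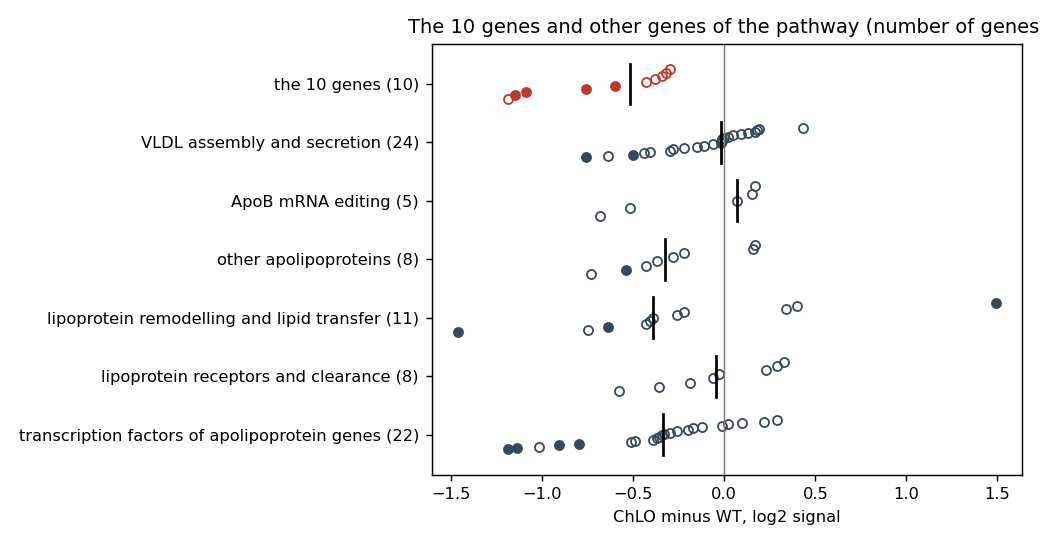
Difference in log2 signal, ChLO minus WT (horizontal axis), for the 10 genes (red) and the 6 pathway lists (dark), with the number of genes tested in brackets. Each circle is 1 gene, filled where the unadjusted limma p is under 0.05, and the black bar is the median. The 10 genes are all left of 0 with a median of -0.51, and the list of VLDL assembly and secretion is centred at -0.02.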

How the data were processed

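Liver RNA of 6 mice (3 ChLO, 3 WT) was read on 1 Affymetrix array each. The authors deposited log2 signals of 45101 probe sets, and the submitters' processing notes name MAS5 with no version. Scale and scaling were inferred from the values: the trimmed mean linear signal was 500 on every array, which hides a shift common to most transcripts. Probe set annotation has no genome build here, and promoter coordinates are those of RefSeq. Detection calls were not used here, and arrays have no read depth: their number limits the precision.

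Probe sets were named by the platform annotation (64 controls left out). Those with a mean log2 signal below the 40th percentile, 5.50, were left out, leaving 27022. The probe set with the highest mean stood for each of 12598 genes. ChLO was compared with WT by limma 3.58.1 in R 4.3.3 (eBayes with a trend, no block), tested on simulated data, with Benjamini-Hochberg adjustment over all genes and a threshold of 0.05. In 20 simulations that threshold recovered 20.1% of genes with a log2 change of 1 and 61.5% with a change of 2. Of the calls, 4.14% were false. A difference is ChLO minus WT and SE is limma's moderated standard error. Nothing in the labels says more of the replicates than that they are biological, so p-values measure the spread between these samples.

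The text names the 10 genes, Mlxipl, up to 3 genes of each pathway list with the smallest p, the 3 genes nearest in pattern to Mttp, Tm6sf2 and Apoa4, and Alb and Ttr. Members and lists were chosen with earlier results of these data known. Same-numbered arrays were not treated as pairs, because the labels give no shared litter, batch or day. In their deviations from group means they correlated at 0.30, -0.17 and 0.06, and arrays of unlike number at -0.31 to 0.26. Deviations from a mean of 3 arrays constrain one another, so these correlations cannot decide on pairing. Alternatives were other scalings, filters, eBayes settings, array weights, probe set choices, a replicate block and leaving out each array in turn. AGGTCA and GTTAAT were added to the promoter search after the first search was seen.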

Additional observations from a re-analysis of the deposited data

How the results depend on the processing

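Of the 17 alternatives, 5 (other filters and eBayes settings and the replicate block) leave a difference of group means as it is. In the other 12, all 120 values of the 10 genes were lower in ChLO livers, and 5 passed the adjusted threshold. The number of the 10 with an unadjusted p under 0.05 (4 as reported) was 9 with array weights and 4 to 8 when an array was left out, the highest without ChLO 3. Over all genes this mark was passed by 24.9% with array weights and 20.4% without ChLO 3, against 8.96% as reported. Of the 17 probe sets (7 as reported) it was 4 with spike-in scaling, 14 with array weights and 5 to 11 with an array left out. Of all 27022 probe sets it was 2167 as reported (976 lower), 3605 with spike-in scaling (358 lower) and 7268 with array weights (3272 lower). With an array left out it was 1390 to 4735, the highest without ChLO 3. Of the 78 pathway genes (10 as reported) it was 5 without a trend, 29 with array weights, 16 with the replicate block and 5 to 29 with an array left out, lowest without WT 1 and highest without ChLO 3. Over all genes it was 8.58% without a trend, 10.6% with the replicate block and 6.52% without WT 1. The genes past the adjusted threshold over all genes, 0 as reported, were 3 without a filter, 568 with array weights, 3 without probe sets of several transcripts, 1 with the replicate block, 14 at an adjusted p of 0.10 and 0 to 302 with an array left out (4 without ChLO 1, 302 without ChLO 3). Spike-in scaling changed the split of genes with an unadjusted p under 0.05 to 1834 higher and 179 lower, against 688 and 441 as reported. Mttp minus Tm6sf2 ran from -0.13 to 0.37 with an array left out, at -0.08 without ChLO 2, -0.13 without ChLO 3, -0.07 without WT 1 and -0.03 without WT 2. Khsrp was at 0.22 without probe sets of several transcripts, and Apobec1 ran from -0.05 to 0.43 with an array left out. The replicate block kept the 10 differences, with 5 of the 10 (Apoa4 added) at an unadjusted p under 0.05 (10.6% of all genes) and adjusted p-values from 0.183 to 0.57. The causes of these shifts were not tested.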
